A study of Mus musculus and Homo sapiens with 12 samples.

Results

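The genes described here are the protein-coding genes that lie next to the ends of human chromosomes. A gene was a member when its midpoint fell within 500 kb of either end of a human autosome (hg38), and the zinc finger (ZNF) genes of chromosome 19 and 5 alpha-globin cluster genes (HBZ, HBM, HBA1, HBA2 and HBQ1) were left out by the rule. This gave 263 genes at 37 chromosome ends, of 58721 genes counted in K562 cells and 18925 autosomal protein-coding genes. The list was drawn up after FAM20C, a gene near the start of chromosome 7, was seen to be high in K562 m5C-IP libraries. It was thus chosen by the IP to Input difference of that gene in K562, so the K562 values of FAM20C are a description, and calls in that contrast are likewise given beside their background share and not as support for the list.

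Subtelomeres are the stretches between the telomeric repeats and the rest of a chromosome arm. They often hold segments that were copied between chromosome ends, with gene families such as olfactory receptors, and many of them are rich in genes and in G and C bases. 5-methylcytosine (m5C) is a cytosine that carries a methyl group, which in RNA is placed by enzymes such as NSUN2, and an antibody against it can pull down RNA fragments that carry it.

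The libraries came from chromatin-associated RNA (caRNA), the RNA that stays with the chromatin fraction, and m5C fragments were pulled down with an antibody (m5C-IP) or not pulled down (Input). K562 is an established human leukaemia cell line, here wild type and kept in RPMI-1640 medium with serum and, by the labels, puromycin, which the study's methods do not give for wild-type cells, and it gave 3 Input and 3 m5C-IP libraries. Wild-type mouse embryonic stem cells (mESC), kept with LIF, CHIR99021 and PD0325901, gave another 3 Input and 3 m5C-IP libraries and enter only the comparison of same-named genes. Groups were taken from the library titles, because the antibody label named the m5C antibody for K562 Input libraries as well.

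The K562 Input libraries held 10477119 to 11865285 gene counts, whereas those of the pull-down held 93110 to 111286. A single IP count therefore stood for 8.99 to 10.7 CPM (counts scaled to 1000000 gene counts), against 0.0843 to 0.0954 CPM in Input, and the members that were tested had a median of 13 IP counts over the 3 libraries together. Of 10 erythroid marker genes, 8 were tested, among them GATA1, TAL1 and TFRC at a mean of 87.0, 150.0 and 372 CPM in Input, while HBE1 and HBG2 were listed at 0 counts in each library. The labels call the cells lymphoblasts, and 7 lymphoid markers together reached 2.39 to 4.25 CPM in the Input libraries.

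Exons of subtelomeric genes held more G and C than those of other genes. The median GC content of their exons was 55.5%, with quartiles of 47.1% and 61.3%, against 48.6% in the other 18646 autosomal protein-coding genes, and their median cytosine content was 27.5% against 24.1%. The 250 bases before the annotated gene start had a median GC content of 65.6% against 59.6%. The 6-base telomere repeat TTAGGG, searched on both strands in those 250 bases, was present in 18 of 263 members (6.84%) and in 8.15% of the other genes. A single match of 6 bases was enough, so these shares say nothing on runs of the repeat.

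Short coding stretches of 5 members show the range of base composition within the list. Each is the 120 bases at the middle of the longest coding exon, read 5′ to 3′ on the coding strand of hg38, with cytosines, the base that can carry m5C, in capitals. FAM20C (chr7:193442-193561, plus strand), SIGIRR (chr11:408734-408853, minus strand) and RASA3 (chr13:113996575-113996694, minus strand) are shown because their RNA was higher in IP, and ZNF718 (chr4:161455-161574, plus strand) and DOCK8 (chr9:446428-446547, plus strand) because theirs was lower.
FAM20C: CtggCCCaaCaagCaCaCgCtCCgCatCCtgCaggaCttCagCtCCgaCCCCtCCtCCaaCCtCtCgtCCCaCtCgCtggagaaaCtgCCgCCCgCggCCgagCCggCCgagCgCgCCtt
SIGIRR: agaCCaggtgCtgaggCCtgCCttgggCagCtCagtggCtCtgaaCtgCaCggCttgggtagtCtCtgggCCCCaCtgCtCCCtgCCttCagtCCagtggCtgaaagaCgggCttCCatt
RASA3: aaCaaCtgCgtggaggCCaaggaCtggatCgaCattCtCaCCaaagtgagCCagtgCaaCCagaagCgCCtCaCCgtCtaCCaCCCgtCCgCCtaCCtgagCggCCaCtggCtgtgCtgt
ZNF718: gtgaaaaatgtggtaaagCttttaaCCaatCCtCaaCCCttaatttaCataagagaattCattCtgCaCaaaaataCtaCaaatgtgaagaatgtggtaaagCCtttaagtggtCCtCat
DOCK8: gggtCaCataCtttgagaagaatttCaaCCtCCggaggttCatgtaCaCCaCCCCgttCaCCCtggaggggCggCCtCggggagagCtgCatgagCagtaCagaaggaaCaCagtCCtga
Cytosines made up 45.8% of the stretch of FAM20C, 30.8% of that of SIGIRR and 34.2% of that of RASA3. They made up 17.5% of that of ZNF718 and 26.7% of that of DOCK8. Over all exons of these genes the cytosine content was 33.6%, 34.75%, 27.25%, 19.4% and 22.8%, in the order shown. The genes were picked by their calls, so they do not show how cytosine content goes with IP. Among other called members, CHL1 (higher) had 19.3% and NPRL3 (lower) 33.4%. The data do not show which cytosines of the stretches were methylated.

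FAM20C, which encodes a kinase of secreted proteins, was nearly absent from the Input libraries. It had 0, 1 and 2 counts in Input (0, 0.0867 and 0.191 CPM) and 5, 4 and 5 counts in IP (46.3, 35.9 and 53.7 CPM). Each IP library was thus above each Input library, and the ratio of CPM was 506, with an exact counting interval from 141 to 2747. The gene spans chr7:192571-260772, its midpoint is 227 kb from the chromosome end, and its exons have a GC content of 66.4%. DIP2C, VIPR2, SLC9A3, CHL1, IFITM2 and ZNF511-PRAP1 shared this pattern of few Input counts, and are described further on.

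Of the 263 members, 164 had counts enough to be tested. Another 34 had no count in any of the 6 libraries, and 20 olfactory receptor genes were among the 99 that were not tested. In the edgeR fit over 14522 genes, 30 of the 164 were higher in IP and 21 were lower at an adjusted p under 0.05, or 18.3% and 12.8% of those tested. Among all genes tested the shares were 15.1% higher and 16.4% lower, and among autosomal protein-coding genes 14.1% and 18.4%. The share of subtelomeric genes called higher thus lay near that of all genes.

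The direction of the calls depended on how the libraries were scaled. With RLE size factors 32 members were higher and 13 lower, with library size alone 36 and 7, and with DESeq2 36 and 7. The median log2 IP/Input of all genes tested was -0.16 with the TMM factors used here, -0.04 with RLE and 0.11 with library size alone. Without IP replicate 1 the members called lower numbered 8, and without IP replicate 3 they numbered 13. The 30 higher calls moved less, to between 25 and 28 when a single library was left out.

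Some members passed the count filter only because their IP libraries were high. A total of 152 members reached the filter level of 1.89 CPM in all 3 Input libraries, and 12 did not, of which 9 were called higher. A gene of that second kind had to be high in IP to be tested at all: among the other protein-coding genes that passed in this way, 84.1% were called higher. Among the 152, 21 were higher (13.8%) and 21 were lower (13.8%), beside 8.97% and 18.0% of all genes at that level, and 8.68% and 19.9% of 10368 other autosomal protein-coding genes that reached the level in the same way.

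Genes of like GC content came close to these shares. When the other genes were weighted to the GC bands of the members, in bands of 5 percentage points of exon GC, 10.9% were higher and 13.6% lower. When they were also weighted to 3 levels of Input, 10.2% were higher and 13.5% lower. The median log2 IP/Input of the 164 tested members was 0.08 and that of the other 11165 genes was -0.20, a difference of 0.28, which was 0.11 against genes weighted to the same GC bands and 0.03 after a GC correction of each library. Without IP replicate 1 the GC-weighted difference was -0.03, on the other side of 0. With the genes at 0 IP counts set at their bound of 3 counts, the medians were 0.11 and -0.16.

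**Figure D1:**
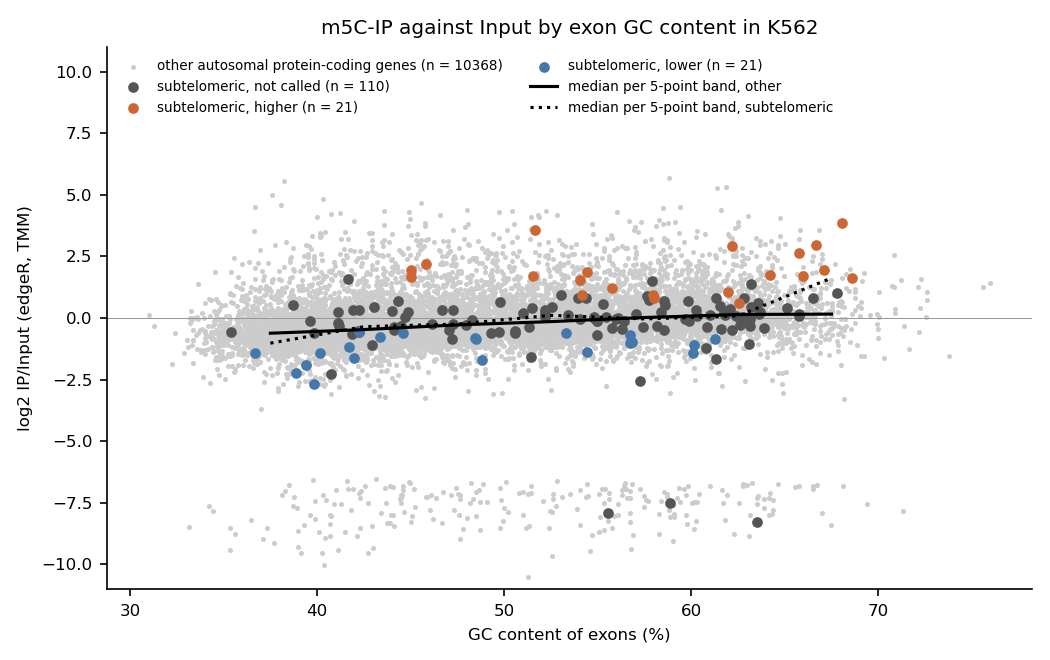
Each point is an autosomal protein-coding gene that reached the filter level in all 3 K562 Input libraries, with the GC content of its exons (%) on the x axis and its log2 IP/Input from edgeR on the y axis. Coloured points are the 152 subtelomeric genes by call, lines join the medians of 5-point GC bands, and the points set apart far below the rest are genes with no IP count, whose fitted values are no measure of size. Both median lines are higher at high than at low GC content, and they lie farthest apart in the highest band, where the members have a median of 1.62 and the other genes 0.16.

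By GC band, the share called higher differed most between members and other genes at the top, and no difference by band was tested. At an exon GC below 40%, 4 of 8 members were lower, beside 35.5% of the other genes, and at 40 to 45%, none of 25 members was higher and 6 were lower, beside 5.77% and 28.8% of the others. The share of members called higher was above that of the others at 45 to 50% (17.6% of 17 beside 9.26%) and at 50 to 55% (18.5% of 27 beside 9.23%), and below it at 55 to 60% (10.3% of 29 beside 12.8%). At 60 to 65%, 4 of 35 members were higher (11.4%) beside 16.1% of the others. At 65% and above, 6 of 11 members were higher and none was lower, beside 13.3% higher and 3.23% lower of 279 other genes. With GC taken over the whole gene, introns included, 3 of 6 members at 65% and above were higher, beside 12.03% of 133.

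The 6 higher genes of the top band were PKP3, B4GALNT4, SIGIRR, SHC2, MADCAM1 and ZBTB45, of which 3 lie side by side near the start of chromosome 11 and 2 near the start of chromosome 19. All 6 were also called after the GC correction, but B4GALNT4 and ZBTB45 lost their calls when a term for replicate number was added to it. ZBTB45, a zinc finger and BTB domain protein, also lost its call without IP replicate 1. The other 5 members of the band, FUOM, ODF3L2, RGS19, LMF2 and KLHDC7B, had 3 to 9 IP counts each and log2 values from 0.10 to 1.01, none of which passed.

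PKP3, a plakophilin of cell junctions, gave 111, 135 and 150 CPM in IP and 30.1, 30.8 and 27.9 CPM in Input. SIGIRR, an inhibitory member of the interleukin-1 receptor family, gave 83.4, 27.0 and 53.7 CPM in IP and 7.08, 5.29 and 5.44 CPM in Input. SHC2, an adaptor of receptor tyrosine kinases, gave 158, 189 and 118 CPM in IP and 22.4, 23.3 and 19.7 CPM in Input. The IP and Input libraries of each of these genes did not overlap, although the IP values of SIGIRR ranged from 27.0 to 83.4 CPM. In edgeR the log2 IP/Input was 1.94 ± 0.28 (SE) for PKP3, with an adjusted p of 2.35e-09. It was 2.98 ± 0.51 for SIGIRR (adjusted p 3.66e-07) and 2.63 ± 0.28 for SHC2 (adjusted p 1.43e-15).

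Ribosomal genes were among the members that rose in IP. Of 4 genes reported from the ribosome list, 3 were higher: RPL8 and RPL35A, which encode ribosomal proteins, and RACK1, a scaffold protein bound to the small ribosomal subunit. The background share is 15.1% of all genes tested and 8.97% of genes at the filter level in Input, which all 4 reached. The list is short and was chosen with earlier results known. The mitochondrial ribosomal gene MRPL28 had a log2 value of 0.83 ± 0.60, which did not pass (adjusted p 0.310 in edgeR).

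RPL8 (chr8:144789765-144792587) gave 167, 153 and 204 CPM in IP and 19.3, 19.7 and 21 CPM in Input. RACK1 (chr5:181236897-181248096) gave 269, 261 and 193 CPM in IP and 63.4, 63.0 and 67.1 CPM in Input. Every IP library was therefore well above every Input library for these genes, which are also among the better counted members, with 54 and 76 IP counts. The edgeR log2 IP/Input was 2.91 ± 0.28 for RPL8 (adjusted p 4.24e-19) and 1.71 ± 0.20 for RACK1 (adjusted p 9.67e-14). RPL35A followed with 79.6 ± 35.8 CPM in IP (SD, n = 3) against 21.7 ± 0.321 in Input. Its log2 value of 1.67 was called in each alternative fit that tested it. Ribosomal protein genes have many near-identical copies elsewhere in the genome, so their counts carry an uncertainty that the libraries do not show.

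RASA3, a GTPase-activating protein that turns off Ras and Rap, had the most IP counts of the members. It gave 612, 629 and 537 CPM in IP and 227, 234 and 209 CPM in Input. The groups did not overlap and the spread within each was small beside the gap. The log2 IP/Input was 1.21 ± 0.13, with an adjusted p of 3.69e-16 in edgeR, and leaving out any library kept it between 1.15 and 1.27. The signalling list did not move as 1 group: of 13 tested signalling genes 4 were higher (RASA3, SHC2, SIGIRR and RAB11FIP3) and 4 were lower (DOCK8, DUSP22, NPRL3 and TBC1D20). All 13 reached the filter level in Input, where 8.97% of all genes were higher and 18.0% lower. RAB11FIP3, a Rab11 effector of membrane recycling, had 7, 9 and 1 IP counts and lost its call in 5 of the 6 fits that left out a library.

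Among the immune genes, 4 of 5 tested members were higher, but IFITM2 and NLRP6 passed the filter only through their IP libraries. At the filter level in Input, 2 of 3 were higher, BTNL9 and MADCAM1, beside 8.97% of all genes at that level. BTNL9, a butyrophilin-like surface protein, had an IP level of 149 ± 23.02 CPM (SD, n = 3) beside an Input level of 66.5 ± 1.64 CPM. MADCAM1, an adhesion molecule for lymphocytes, gave 18.5, 27.0 and 96.7 CPM in IP and 2.53, 2.60 and 2.96 CPM in Input. IFITM2, an interferon-induced membrane protein, gave 18.5, 8.99 and 107 CPM in IP and 1.60, 1.82 and 1.72 CPM in Input.

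IP replicate 3 was by far the highest library for MADCAM1 and IFITM2. The log2 IP/Input of IFITM2, which was tested only because IP was high, was 4.38 ± 0.63. It was 2.79 without that library, where the call was lost. The log2 of MADCAM1 was 3.84 ± 0.59 (edgeR adjusted p 1.24e-08) and stayed called. IFITM3, a close copy of IFITM2 in the same gene cluster, had its only 4 IP counts in replicate 3 and was not called. NLRP6, an innate immune sensor, had 1, 2 and 1 IP counts and lost its call without any single IP library. The 7 lymphoid markers together gave 2, 7 and 6 counts in the IP libraries (18.5 to 64.4 CPM, against 2.39 to 4.25 CPM in Input), with MS4A1 at 0 in each of the 6 libraries. Their part in the immune genes' values was not tested.

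**Figure D2:**
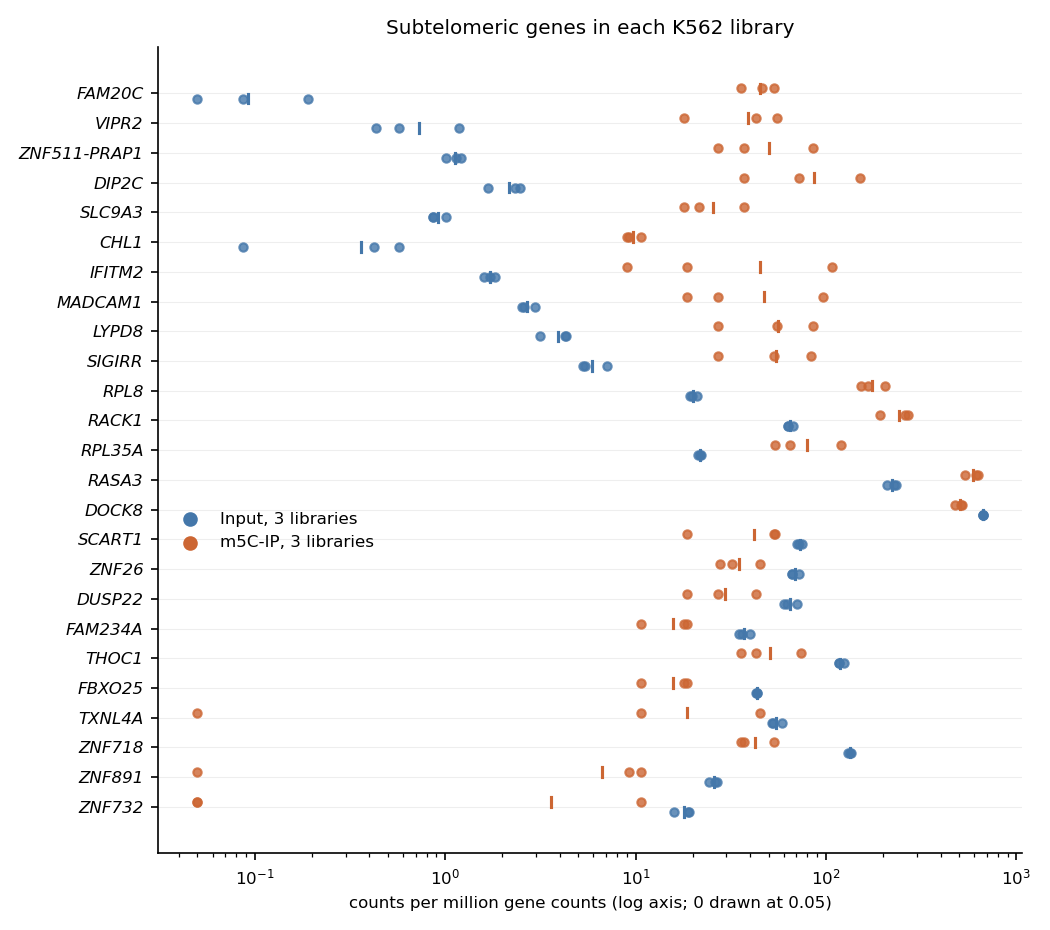
Each point is a K562 library, 3 Input and 3 m5C-IP for each gene, with CPM on a log axis and counts of 0 drawn at 0.05, and short bars mark the group means. Genes are ordered by log2 IP/Input, from FAM20C, whose IP libraries lie at 35.9 to 53.7 CPM, down to ZNF732, which has 2 IP libraries at 0.

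The members with the largest log2 values had few Input counts and more scattered IP values. VIPR2, a receptor for vasoactive intestinal peptide, gave 55.6, 17.97 and 43.0 CPM in IP and 1.18, 0.434 and 0.573 CPM in Input, with a log2 of 5.45 ± 0.67. DIP2C gave 37.1, 71.9 and 150 CPM in IP and 1.69, 2.34 and 2.48 CPM in Input, with a log2 of 5.05 ± 0.48. SLC9A3, a sodium-hydrogen exchanger of gut and kidney, had 4, 2 and 2 IP counts beside 12, 10 and 9 Input counts. CHL1, a neural adhesion molecule, had 1 count in each IP library, and its CPM ratio of 27.1 had a counting interval from 4.91 to 101.

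All of these genes needed their IP libraries to pass the filter, as described above, so no p-values are given for them. LYPD8, a secreted protein of the colon, passed on Input alone, with 55.6, 27.0 and 85.9 CPM in IP and 4.30, 4.25 and 3.15 CPM in Input, and a log2 of 3.58 ± 0.53 (edgeR adjusted p 4.01e-09). The read-through transcript ZNF511-PRAP1 shares 100% of its exon bases with other genes, SLC9A3 56.8% and VIPR2 39.4%, so their counts depend on how shared reads were assigned. Of 9 tested members of the list of neural and other tissue-restricted genes, 3 were higher, FAM20C, CHL1 and VIPR2, beside 15.1% of all genes tested, and none was lower. All 3 needed their IP libraries to be tested, and of the 4 that reached the filter level in Input none was called.

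Zinc finger genes and genes of RNA processing held 9 of the 21 lower calls. The zinc finger list held members whose symbol starts with ZNF or ZFP, so ZBTB45, called higher, was not in it. Of its 20 tested members, 5 were lower (ZNF732, ZNF891, ZNF718, ZNF84 and ZNF26), beside the background of 16.4%. The read-through ZNF511-PRAP1 was the only higher one of the list. The median log2 of the tested zinc finger members was -0.57 and their median exon GC 43.0%. Of the 19 that reached the filter level in Input, 5 were lower. In the exon GC band that starts at 40%, 28.8% of other genes at that level were lower. The lower share of the zinc finger list was thus not above that of other genes in this band. Of 10 tested RNA processing genes, 4 were lower and none was higher, beside 18.0% and 8.97% of all genes at the filter level in Input.

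ZNF718 (chr4:124501-202303) was the best-measured of the zinc finger calls. It gave 37.1, 35.9 and 53.7 CPM in IP and 135, 131 and 135 CPM in Input. The groups did not overlap, the log2 IP/Input was -1.89 ± 0.31 with an adjusted p of 1.26e-07 in edgeR, and the call held in every alternative. ZNF732 and ZNF891 had only 1 and 2 IP counts in all, with CPM ratios of 0.179 (counting interval 0.00452 to 1.00) and 0.249 (0.0301 to 0.900), and lost their calls under several alternatives, the GC correction among them. ZNF84 had 5 of its 7 IP counts in replicate 3.

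THOC1, a subunit of the complex that couples transcription to mRNA export, gave 74.1, 35.9 and 43.0 CPM in IP and 116, 124 and 117 CPM in Input. Its log2 IP/Input was -1.43 ± 0.30 (edgeR adjusted p 3.99e-05), and no alternative ended the call. TXNL4A, a spliceosomal protein, gave 0, 44.9 and 10.7 CPM in IP against 58.7, 52.4 and 52.7 CPM in Input and lost its call without IP replicate 1 or 3. MCM3AP, which acts in mRNA export, and TCF25, which acts in rescue of stalled ribosomes, had log2 values of -0.59 ± 0.19 and -0.67 ± 0.25, and both calls were lost without IP replicate 1. The splicing gene LUC7L, with 167 ± 17.4 CPM in IP and 199 ± 4.45 in Input, did not pass (log2 -0.47 ± 0.19, adjusted p 0.0518 in edgeR).

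DOCK8, a guanine nucleotide exchange factor of leukocytes, was the member with the highest Input level. It gave 519, 476 and 516 CPM in IP and 670, 670 and 667 CPM in Input, with no overlap. Its log2 IP/Input was -0.62 ± 0.12 (edgeR adjusted p 6.51e-06). The next in Input level were TBCD, a tubulin-folding cofactor, at 417 ± 9.16 CPM, PCNT, a centrosome scaffold, at 402 ± 3.11, PPP6R2, a phosphatase subunit, at 332 ± 0.906, and DIP2A at 285 ± 4.70. None of these 4 was called: their log2 values were 0.04 ± 0.13, -0.02 ± 0.13, 0.23 ± 0.13 and -0.34 ± 0.16, and each of them changed sign under at least 1 alternative.

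NPRL3, an inhibitor of mTORC1 signalling that hosts enhancers of the alpha-globin genes, gave 111, 89.9 and 204 CPM in IP and 203, 207 and 202 CPM in Input. IP replicate 3 lay at the Input level, so the groups overlapped, and the log2 IP/Input was -0.84 ± 0.21 (edgeR adjusted p 0.000502). DUSP22, a dual-specificity phosphatase, gave 18.5, 27.0 and 43.0 CPM in IP and 60.4, 70.3 and 62.7 CPM in Input, with a log2 of -1.37 ± 0.41 (adjusted p 0.00483) that was not called without IP replicate 1. FBXO25, FAM234A and SCART1 had 5, 5 and 13 IP counts and log2 values of -1.64, -1.41 and -1.01, each of which lost its call without at least 1 IP library.

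In the other lists few members moved. Among all genes tested 15.1% were higher and 16.4% lower, and among those at the filter level in Input 8.97% and 18.0%. Of 15 tested genes of chromatin and transcription, all at that level, 2 were higher (TRIM28 and ZBTB45) and 2 lower (ADNP2 and KDM5A). TRIM28, a co-repressor recruited by KRAB zinc finger proteins, gave 148, 135 and 107 CPM in IP and 76.9, 76.1 and 73.4 CPM in Input, and its log2 of 0.59 ± 0.24 (edgeR adjusted p 0.0474) fell to 0.09 after the GC correction and was called in only 1 of the 6 fits that left out a library. KDM5A, a histone H3K4 demethylase, had a log2 of -0.58 ± 0.23 and lost its call in most alternatives. Of 13 tested genes of mitochondria and metabolism, 1 was lower (SLC27A5) and none was higher, and SDHA, a subunit of succinate dehydrogenase, gave 151 ± 14.3 CPM in IP and 138 ± 1.31 in Input.

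For each list below, the share over all genes tested was 15.1% higher and 16.4% lower. Over genes at the filter level in Input it was 8.97% and 18.0%. Of 9 genes of the proteasome and ubiquitin list, TRIM7, which passed only through IP, was higher and FBXO25 lower. Of 5 genes of genome maintenance and cell division, CHMP2A, an ESCRT-III subunit, was higher and NCAPH2, a condensin II subunit, was lower, the latter with 8 of its 9 IP counts in replicate 2. The multicopy families typical of chromosome ends were mostly beyond reach: of 25 found, 4 were tested, and FRG1 alone was called, with 1, 2 and 3 IP counts and a call that was lost in 4 of the 6 fits that left out a library. WASHC1, RABL2B and ZNG1A, whose near-identical copies share reads, did not pass. Of 56 tested members in no list, 9 were higher, or 16.1% beside the 15.1% of all genes (ANO9, B4GALNT4, DIP2C, EXOC3, IQCG, LYPD8, PKP3, SLC9A3 and SPIRE2, with DIP2C and SLC9A3 passing only through IP), and 3 were lower (FAM234A, LRCH3 and SCART1). Of 16 tested telomere proteins, which are not members, TERT was higher and ATRX and POT1 were lower.

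The summed counts of the members gave a value less limited by depth. They took 1.14%, 1.15% and 1.13% of the autosomal protein-coding counts in the Input libraries and 1.53%, 1.39% and 1.45% in the IP libraries. The IP libraries were all above the Input libraries, with means of 1.46% ± 0.0703 and 1.14% ± 0.0121 (SD, n = 3) and a ratio of 1.28, with no test. Leaving out RASA3 gave a ratio of 1.24, and leaving out RPL8, RPL35A and RACK1 also gave 1.24. The adjoining regions gave 1.33 at 0.5 to 1 Mb and 1.29 at 1 to 2 Mb, which are above that of the outermost 500 kb.

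Among genes at the filter level in Input, 9.26% of the 54 members within 0.25 Mb of an end were higher and 12.96% were lower. At 0.25 to 0.5 Mb, 16.3% of 98 were higher and 14.3% lower. The share of higher calls was 18.3% at 0.5 to 1 Mb, 16.8% at 1 to 2 Mb, 11.7% at 2 to 5 Mb, 10.8% at 5 to 10 Mb and 7.76% beyond. Exon GC content moved with it, with medians of 50.2% within 0.25 Mb, 56.9% at 0.25 to 0.5 Mb, 60.9% at 0.5 to 1 Mb and 45.8% beyond 10 Mb.

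**Figure D3:**
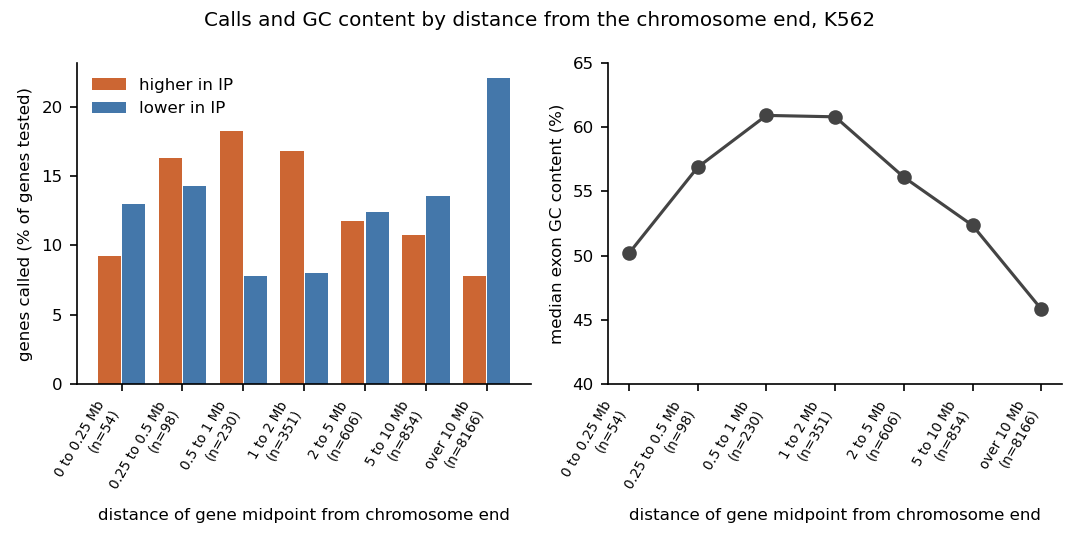
The left panel gives the percentage of tested autosomal protein-coding genes called higher or lower in K562 IP, by distance of the gene midpoint from the chromosome end, and the right panel gives the median exon GC content (%) of the same genes on an axis from 40 to 65%. The share of higher calls and the GC content both peak between 0.5 and 2 Mb, at up to 18.3% and 60.9%, and are lower at the very end.

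At the limit of 500 kb, the members just inside were TUBGCP2 at 499 kb, SLC9A3 at 498 kb and MADCAM1 at 497 kb, with log2 values of -0.10, 4.57 and 3.84. Just outside were DENND6B at 500.4 kb, RNH1 at 501 kb and LSS at 502 kb, with 1.30, 0.70 and -0.56.

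The summed values differed between chromosome ends. Of 28 ends with at least 20 IP counts, 13 had a ratio of IP to Input shares whose counting interval lay above 1, 2 had one below 1 and 13 included 1. The highest were the start of chromosome 19 (2.87, interval 2.36 to 3.46), the end of chromosome 5 (2.41, 2.05 to 2.81) and the start of chromosome 11 (2.19, 1.94 to 2.47). Below 1 were the start of chromosome 4 (0.685, 0.521 to 0.885) and the start of chromosome 9 (0.842, 0.724 to 0.975). These intervals cover counting error only.

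Single genes set several of these values. Without DOCK8 the start of chromosome 9 had a ratio of 1.63, without RPL8 the end of chromosome 8 fell from 1.80 to 0.819, and without RASA3 the end of chromosome 13 fell from 1.83 to 1.07. The start of chromosome 11 did not rest on a single gene: without ANO9 the ratio was 1.995. At the filter level in Input, 4 of its 11 genes were higher (B4GALNT4, PKP3, SIGIRR and ANO9), beside 8.97% of all genes at that level, and none was lower. NLRP6 and IFITM2, also called higher there, passed only through IP. The mean exon GC content, weighted by Input counts, was 60.1% at this end and 62.7% at the start of chromosome 19, against 39.9% at the start of chromosome 4. It was 59.8% at the end of chromosome 22, where none of 8 tested genes was higher and the ratio was 1.36.

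**Figure D4:**
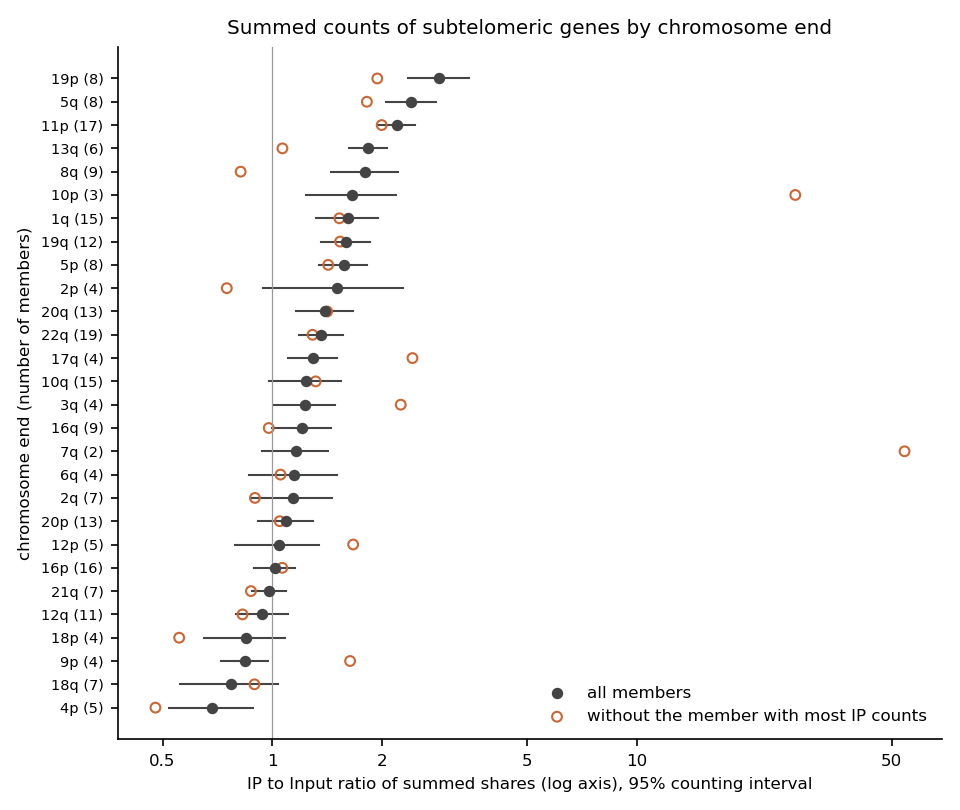
Filled points give, for each of 28 chromosome ends (p, start; q, end), the ratio of IP to Input shares summed over its members on a log axis, with 95% counting intervals, and open points give the ratio without the member that has the most IP counts. The start of chromosome 19 lies highest at 2.87 and the start of chromosome 4 lowest at 0.685, and open points far from filled ones mark ends where a single gene holds most counts.

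Mouse embryonic stem cells gave a readout that the rule did not use. For 178 members a mouse gene of the same symbol was found, wherever it lies in the mouse genome, and 143 were tested. Of these, 37 were higher in mESC IP (25.9%) and 80 lower (55.9%), beside 39.9% and 42.0% of all mouse genes tested and 33.3% and 50.2% of mouse protein-coding genes. Among genes at the filter level in the mESC Input libraries, 12.1% of 116 were higher and 69.0% lower, beside 19.8% and 61.0% of 12710 others. Scaled by library size alone, 48 were higher and 48 lower.

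The K562 calls did not carry over to mouse as a block. Of 24 tested mouse counterparts of the members higher in K562, 7 were higher (29.2%) and 13 lower (54.2%) in mESC. These shares lay near the 25.9% and 55.9% of all tested counterparts, and 4 of the 7 needed IP to be tested. Of 13 counterparts of the members lower in K562, 11 were lower (84.6%) and 2 higher. Among all counterparts at the filter level in mESC Input, 69.0% were lower. TMM factors were 0.697 to 0.715 for mESC Input and 1.40 to 1.43 for mESC IP, so a call of lower did not require a lower CPM in IP. Rab11fip3 (log2 -0.68) and Fam234a (log2 -0.60) were called lower although every IP library was above every Input library in CPM. Fam20c, with 5.03, 5.69 and 5.90 CPM in mESC Input and 38.02, 100 and 52.3 CPM in IP, was higher (log2 2.57 ± 0.29, adjusted p 6.36e-07 in edgeR). Rasa3 was also higher, at 37.2, 36.2 and 37.1 CPM in Input and 112, 98.6 and 99.6 CPM in IP (log2 0.51 ± 0.15, adjusted p 0.00502).

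RPL8, RACK1 and RPL35A went the other way in mESC. Rpl8 gave 52.8, 22.1 and 16.9 CPM in IP and 64.1, 65.4 and 66.6 CPM in Input, and Rack1 gave 67.6, 98.6 and 105 CPM in IP and 252, 246 and 249 CPM in Input. All 3 IP libraries were below all 3 Input libraries for these genes and for Rpl35a. Vipr2, Slc9a3, Nlrp6, Chl1 and Madcam1 were higher in mESC IP, with log2 values from 1.504 to 7.37, but all of these except Chl1 fell below the mESC filter level of 0.676 CPM in at least 1 Input library and were tested only because IP was high. Thoc1 and Txnl4a were lower. Whether the lines differ was not tested.

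**Figure D5:**
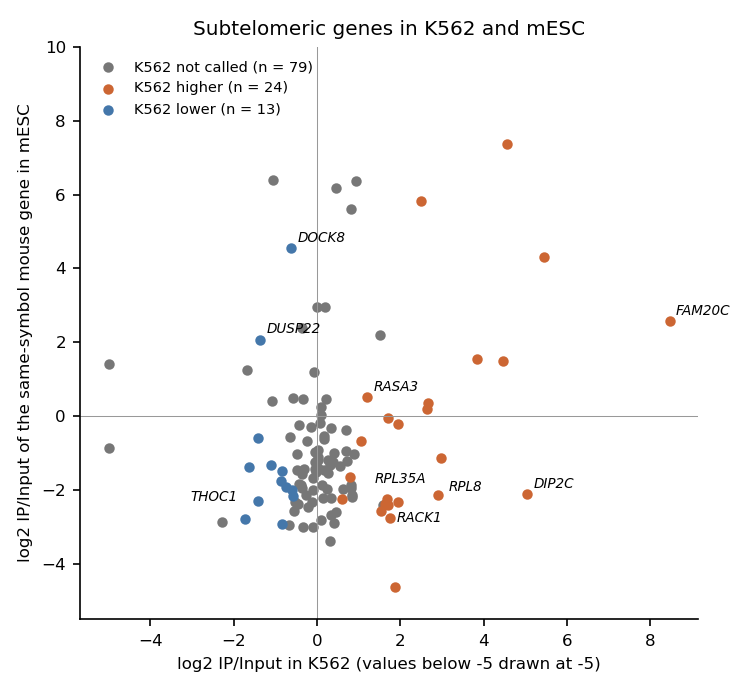
Each point is a subtelomeric gene tested in K562 whose same-symbol mouse gene was tested in mESC, with its log2 IP/Input in K562 on the x axis and in mESC on the y axis, coloured by its K562 call. Most points lie below 0 on the mESC axis, and RPL8, RACK1 and RPL35A, with DIP2C, sit at the lower right, high in K562 and low in mESC.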

How the data were processed

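The members and the gene lists were chosen with earlier results of these data known. According to the study's methods and the labels, the authors trimmed reads with Trimmomatic (version 0.39) and aligned them with HISAT2 (2.1.0) to hg38 or mm10 with spike-in sequences. The deposited files hold raw counts per gene, ending in HTSeq-style summary lines. For peak calling the study removed duplicate reads with Picard and split reads by strand. Whether the counts were made from those reads, or by strand, is not given in the sources used here, so overlapping and antisense genes are uncertain. Summary lines made up 26.0% to 26.2% of records in K562 Input and 60.7% to 61.4% in K562 IP and stayed out of library sizes. The mESC IP libraries held 473398 to 592324 gene counts and the mESC Input libraries 29007088 to 34752646. Peak lists were not used here.

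Gene positions, exon GC content and biotypes came from GENCODE 44 (GRCh38), while the study names release 29. Of the gene identifiers 99.2% matched, and in no library did the others hold more than 0.184% of counts. Sequences were read from hg38.

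IP was tested against Input on counts by edgeR 4.0.16 under R 4.3.3 (quasi-likelihood test, TMM, filterByExpr, Benjamini-Hochberg adjustment over all genes of the table at 0.05) within each cell line. The standard error was the absolute log2 value divided by the square root of F. CPM used library sizes without TMM factors. Ratios of counts have exact (Clopper-Pearson) 95% intervals, which cover counting error only, since the reads carry no molecular identifiers used in counting. The floor was 3 counts. The labels do not say that the replicates are separate cultures, so p-values measure the spread between these libraries. K562 Input replicate 1 differed from 2 and 3 by less than sampling noise over genes (chi-square per degree of freedom 0.912 and 0.918), while 2 and 3 differed slightly beyond it (1.03). Over 20 GC bins the 3 Input pairs differed beyond it (28.8, 20.1 and 85.6), and the libraries were kept as 3. The K562 IP pairs differed beyond sampling noise over genes (1.17, 1.21 and 1.19), so the spread of IP counts was wider than counting error.

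Named genes were FAM20C, the 10 called members with the highest and the 10 with the lowest log2 whose mean reached 5 CPM and whose groups did not overlap, the 5 members with the highest Input, 3 genes on each side of the distance limit, and up to 3 genes of each list. A gene of the ribosome list is not reported here by name, but stays in the fit and in counts over all members. Other genes were named after their values were seen, as called members of a list or as members of the top GC band. The scripts were tested on simulated counts with 200 genes changed 4-fold. In the K562 run 195 of the 200 were recovered and 20 calls were false, or 9.30% of calls. In the mESC run 199 were recovered and 17 calls were false, or 7.87%. Both false shares were above the threshold set for the adjusted p. Alternatives were other scalings, DESeq2 1.42.0, other filters, a replicate block, a GC correction, thinned Input, leaving out each library and other distance limits.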

Additional observations from a re-analysis of the deposited data

Results flagged for a closer look

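In 22 of 116 members tested in both lines, every K562 IP library lay on the opposite side of Input from every mESC IP library of the same-symbol mouse gene. The difference between the lines was not tested. The share among all same-symbol gene pairs was not counted, so the 22 have no background share beside them. Of the members among the 22 that were called in K562, 10 that were higher and 2 that were lower are described here. The genes RPL8, RACK1 and RPL35A were higher in K562 and lower in mESC, with log2 IP/Input of 2.91 and -2.14 for RPL8 and Rpl8, 1.71 and -2.41 for RACK1 and Rack1, and 1.67 and -2.25 for RPL35A and Rpl35a. The pair ANO9 and Ano9 gave 1.76 and -2.77, B4GALNT4 and B4galnt4 1.62 and -2.39, CHMP2A and Chmp2a 1.86 and -4.63, and FRG1 and Frg1 1.93 and -2.34. Of these, Chmp2a had 1, 0 and 0 IP counts in mESC, and FRG1 had 6 IP counts in all in K562. The values nearer to 0 in K562 were 0.59 for TRIM28, with -2.24 for Trim28, and 0.80 for EXOC3, with -1.65 for Exoc3. FUOM, which was not called in K562, gave 0.14 and Fuom -2.23. FUOM had 1 count in each K562 IP library, which at that depth was enough to put each above Input. DIP2C and Dip2c had 5.05 and -2.11, and DIP2C passed the K562 filter only through its IP libraries. DIP2C had 73 Input counts in K562, whereas Dip2c was among the well-counted genes of mESC Input at 380, 380 and 384 CPM.

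DOCK8 and DUSP22 went the other way, with -0.62 in K562 and 4.55 for Dock8 in mESC, and -1.37 in K562 and 2.07 for Dusp22. Dock8 had 1.90, 1.54 and 1.41 CPM in mESC Input, against the 667 to 670 CPM of DOCK8 in K562 Input.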

How the results depend on the processing

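The 30 members called higher became 11 with Input thinned to IP depth, where 42 members were tested, 6 within 250 kb, 78 within 1 Mb, and 25 to 28 with a library left out. The 21 called lower became 13 with RLE, 7 with library size alone, 7 with DESeq2, 36 with no filter, 4 with at least 10 counts in IP and in Input, 1 with thinned Input, 7 within 250 kb, 39 within 1 Mb, and 8 to 20 with a library left out. After the GC correction 26 members were higher and 27 lower. Of the 30 higher calls 22 held in all 6 leave-one-out fits and 25 after the GC correction, and of the 21 lower calls 4 (ZNF718, THOC1, NPRL3 and DOCK8) and 17. With alternatives chosen after seeing the data, merging Input replicates 1 and 2 gave 28 and 19, and the Input filter gave 21 and 21.

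The median log2 of members minus other genes, 0.28, became 0.22 with no filter, 0.34 with at least 10 counts, 0.39 with thinned Input, 0.033 with the GC correction, 0.031 with the block added to it, 0.11 within 250 kb, and 0.15 to 0.30 with a library left out. Against GC-weighted genes, 0.11 became -0.0070 with no filter, 0.15 with at least 10 counts, 0.035 with the GC correction, 0.033 with the block added, 0.17 with thinned Input, 0.050 within 250 kb, 0.034 within 1 Mb, and -0.027 to 0.13 with a library left out. The cause was not tested beyond what each setting changes. In mESC, library size alone gave 48 lower counterparts in place of 80, and leaving out a library gave 76 to 80.

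Same-numbered K562 samples showed little correlation of their deviations (0.0052, 0.0070 and 0.077). With so few IP counts per gene, these values cannot show whether the samples were paired. With the replicate block, 27 members were higher and 14 lower, with the GC correction added 21 and 20, and in mESC 33 and 75. In mESC each sample correlated best with its own number, at 0.030 to 0.033, a hint from the data and not from the design.

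Members near 0 that were not called changed sign. D2HGDH (0.16) gave -0.18 with no filter, -0.36 with the GC correction, -0.37 with the block added and -0.63 to 0.45 with a library left out. PGGHG (0.26) gave -0.085, -0.27 and -0.27 under the first 3 of these, PPP6R2 (0.23) -0.12, -0.14 and -0.14, RBCK1 (0.04) -0.31, -0.22 and -0.22, and TBCD (0.04) -0.31, -0.20 and -0.20. With a library left out, PPP6R2 ranged from -0.062 to 0.45, RBCK1 from -0.13 to 0.16 and TBCD from -0.082 to 0.18. With RLE, library size alone, DESeq2 and at least 10 counts, GAS8 (-0.04) gave 0.084, 0.23, 0.084 and 0.20, PCNT (-0.02) 0.10, 0.25, 0.10 and 0.22, SDHA (-0.08) 0.036, 0.18, 0.036 and 0.15, and USP14 (-0.11) 0.0066, 0.15, 0.0064 and 0.12. With thinned Input, PCNT gave 0.34, SDHA 0.26, USP14 0.40 and DIP2A 0.065. USP14 gave 0.18 with the GC correction and 0.18 with the block added. With a library left out, GAS8 ranged from -0.13 to 0.031, PCNT from -0.089 to 0.059 and USP14 from -0.38 to 0.14. IFITM3 ranged from -8.36, where no IP count was left, to 1.51. At this depth 62 of 164 tested members had fewer than 10 IP counts, and the smallest difference that such counts can show was not measured.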
